A study of Mus musculus with 15 samples.

Results

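The lung epithelium was followed here through 10 of its marker genes, read in RNA of mouse alveolar macrophages. They were the surfactant protein genes Sftpc, Sftpb, Sftpd and Sftpa1, the club cell gene Scgb1a1, and 5 genes of epithelium in general: Epcam, Cdh1 and the keratin genes Krt8, Krt18 and Krt19. The genes were chosen by name, with earlier results of these data known. A gene was read from probes that the platform annotation pairs with its symbol alone. Of 12909 genes with a symbol on the array, 9 of the 10 had such a probe, 1 probe each, and Sftpb was not analysed here. Values were kept for the test where at least 3 arrays of every group had one, which left 8 genes, since Krt18 had values on 8 of 15 arrays. Epcam, Krt19, Krt8 and Scgb1a1 had a value on all 15 arrays, Sftpc on 14, Cdh1 on 13, Sftpa1 on 12 and Sftpd on 11.

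The study hybridised total RNA of alveolar macrophages, the phagocytes of the air spaces, on 15 2-colour arrays against a common reference labelled Mac Ref. The groups were 5 wild type samples (b6+/+), 5 samples of mice deficient in the integrin subunit beta6 (b6-/-) and 5 samples of beta6 deficient mice reconstituted with TGF-b1 (b6-/-TGFb+/+), called beta6 null with TGFb1 below. The names of all 3 groups carry Dox, for doxycycline, so no group is free of it, and wild type mice with TGFb1 were not among the samples. The labels give no promoter for TGFb1, no age and no sex, and do not say whether an array holds 1 animal or a pool, so a p-value speaks only of how these samples varied, and that variation may be technical.

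Surfactant is a film of lipid and protein that lowers the surface tension of the alveoli. Type II cells of the alveolar epithelium make it, club cells line the airways and secrete Scgb1a1, and alveolar macrophages take up spent surfactant and break it down. Epcam and E-cadherin, the product of Cdh1, hold epithelial cells together, and the keratins form their filaments. The integrin alphavbeta6 sits on these same epithelial cells and activates latent TGFb there. RNA of epithelial cells in a macrophage sample would raise such markers side by side, which is the question put to the 10 genes. In these bulk samples, fewer cells of a type and less RNA per cell cannot be told apart.

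Each value is a log2 ratio centred on the median of its array, taken as sample over reference. Neither the direction nor the base of the logarithm is stated. Sample over reference is the likely reading, given which channel holds the reference and given Mmp12, macrophage elastase, a gene known to be raised when beta6 is missing, which was 4.31 higher here (SE 0.42); were it inverted, every sign below would turn. A ratio near or below 0 is set against the reference only, so it does not show whether a gene was absent, and ratios of different genes are not compared as levels. Arrays held 11615 to 16483 values each of 17225 probes, their SD ran from 0.841 to 2.01, and any 2 of them correlated at r = 0.194 to 0.576. The widest values and the most missing ones were those of wild type replicate 2 and of beta6 null replicate 1. The 11 general macrophage genes measured on all arrays averaged between -0.60 and 0.14 per array. Their medians were -0.07 for wild type, -0.34 for beta6 null and 0.02 for TGFb1. As ratios to a reference, these values cannot show which cells the samples held.

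Between beta6 null and wild type macrophages 3 of the 8 genes tested changed, in both directions: Epcam and Krt19 fell and Sftpc rose. Over all 13273 features tested, 126 passed an adjusted p of 0.05, or 0.949%, with 48 higher (0.362%) and 78 lower (0.588%). With TGFb1 against beta6 null, 2 of the 8 changed, Epcam and Krt19, which both rose; over all features 94 passed, or 0.708%, 77 higher (0.58%) and 17 lower (0.128%). With TGFb1 against wild type none of the 8 passed, which does not show that they were alike; over all features 0 passed by limma, or 0%, and 833 had an unadjusted p under 0.05 (6.28%). Other scalings brought the higher and lower calls over all features closer together: to 40 higher and 36 lower under quantile normalization and 30 and 31 once all arrays had an equal spread in the first comparison, and to 8 and 7 and 8 and 3 in the second. Under either of these scalings none of the 8 genes passed, although Epcam, Krt19 and Sftpc kept their signs wherever they had been called. With the suffix of the sample titles, whose meaning is not given, as a block, the fall of Krt19 (-1.89, adjusted p = 0.0806), the rise of Epcam with TGFb1 (1.90, adjusted p = 0.0771) and the rise of Sftpc (2.30, adjusted p = 0.0725) lost their calls, and the fall of Epcam (adjusted p = 0.0499) and the rise of Krt19 (adjusted p = 0.0306) kept them. Counts over all features also moved by over 1.5 times when 1 array was left out. The 126 became 81, 68, 80 and 64 without wild type replicates 1, 3, 4 and 5 and 72 without beta6 null replicate 2. The 94 became 40, 49, 24 and 23 without TGFb1 replicates 1, 2, 3 and 4, 38 and 52 without beta6 null replicates 2 and 4, and 318 without wild type replicate 2.

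Epcam codes for an adhesion molecule of the epithelial surface. With Krt19 and Cdh1 it was kept off the list of alveolar macrophage genes used below. Whether its RNA came from epithelial cells or from the macrophages was not tested. The log2 ratio of Epcam was -1.49, -1.36, 0.29, -0.31 and -0.18 on the wild type arrays. On the beta6 null arrays it was -2.64, -2.85, -2.81, -3.31 and -3.12, and with TGFb1 it was -1.45, -2.15, -0.25, -0.30 and -0.70. All 5 beta6 null arrays lay below all arrays of both other groups, and the wild type and TGFb1 arrays overlapped. The group means were -0.61 ± 0.78 for wild type, -2.95 ± 0.27 for beta6 null and -0.97 ± 0.82 for TGFb1 (SD, n = 5 each). Epcam fell by 2.34 in beta6 null (SE 0.42, adjusted p = 0.0140), a 5.05-fold difference, and kept that call in all 15 fits that left out 1 array (highest adjusted p 0.0473). With TGFb1 it was 1.98 above beta6 null (SE 0.42, adjusted p = 0.0442). That rise was called in 4 of the 15 fits that left out 1 array, those without wild type replicates 1, 2 and 3 and without TGFb1 replicate 2, and without each of the other 11 arrays its adjusted p ran up to 0.142 and its size from 1.80 to 2.10. The exact two-sided permutation test of Epcam by itself, not adjusted over genes, gave p = 0.00794 in both comparisons, the smallest that 5 against 5 arrays allow. With TGFb1 against wild type the difference was -0.36 (95% interval -1.26 to 0.54, adjusted p = 0.899).

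The promoter of Epcam is shown because Epcam is the called member with a sequence in the table used. The window runs from 250 bases before to 50 after the start site and is taken from RefSeq, build GRCm38.p6, chr17:87635729-87636028, plus strand. Capitals mark CAGAC, the core bound by Smad proteins that carry the TGFb signal, and CACCTG, the E-box of the Snail and Zeb repressors of epithelial genes, both searched on both strands.
Epcam promoter: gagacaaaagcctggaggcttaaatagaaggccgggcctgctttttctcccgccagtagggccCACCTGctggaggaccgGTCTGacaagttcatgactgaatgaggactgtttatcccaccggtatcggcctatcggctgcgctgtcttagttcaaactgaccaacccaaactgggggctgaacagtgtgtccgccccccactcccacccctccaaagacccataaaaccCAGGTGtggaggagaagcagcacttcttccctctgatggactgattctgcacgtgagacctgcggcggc
The window held 1 match of the first motif and 2 of the second, and none overlapped another. Of 32851 promoters of this length, 49.6% held CAGAC and 20.2% held CACCTG. A match is a stretch of letters and not a measured binding site.

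Krt19 codes for a keratin of simple epithelium and is also counted among the genes that mouse alveolar macrophages express themselves. It read -1.46, -2.24, -0.82, -1.74 and -0.18 on the wild type arrays. It read -2.94, -3.06, -4.25, -3.22 and -3.02 on the beta6 null arrays and -0.80, -1.34, -0.31, -0.70 and -1.496 on those with TGFb1. As for Epcam, the beta6 null arrays lay below all others, and the other groups overlapped. The means were -1.29 ± 0.80 (SD, n = 5), -3.30 ± 0.54 and -0.93 ± 0.48. Krt19 fell by 2.01 in beta6 null (SE 0.40, adjusted p = 0.0272), which is 4.03-fold, and with TGFb1 it rose by 2.37 over beta6 null (SE 0.40, adjusted p = 0.0160), which is 5.16-fold. The fall lost its call without beta6 null replicate 2 (-2.07), beta6 null replicate 3 (-1.77) and wild type replicates 1 (-2.05), 3 (-1.89) and 5 (-1.73), with adjusted p from 0.0520 to 0.0824. The rise lost it without TGFb1 replicate 3 (2.21, adjusted p = 0.0571) and 4 (2.31, adjusted p = 0.0582). The exact two-sided permutation test of Krt19 by itself gave p = 0.00794 in both comparisons, not adjusted over genes. With TGFb1 against wild type the difference was 0.36 (95% interval -0.49 to 1.21, adjusted p = 0.894).

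Sftpc codes for surfactant protein C, a small hydrophobic peptide made by type II cells. It moved against Epcam and Krt19. Its log2 ratio was -1.95, -3.50, -3.30, -4.00 and -1.85 in wild type. It was -0.24, -0.96, -1.53 and -0.22 on the 4 beta6 null arrays with a value and -0.60, -1.43, -1.38, -1.29 and -0.61 with TGFb1. All wild type arrays lay below all arrays of both other groups, which overlapped each other. The means were -2.92 ± 0.97 for wild type (SD, n = 5), -0.74 ± 0.63 for beta6 null (n = 4) and -1.06 ± 0.42 for TGFb1 (n = 5). Sftpc rose by 2.18 in beta6 null (SE 0.47, adjusted p = 0.0459), a 4.54-fold difference close to the threshold. The call held in 4 of 15 fits without 1 array, those without beta6 null replicate 1 or 4 or wild type replicate 1 or 5. Without each of the other 11 arrays the adjusted p lay between 0.0569 and 0.149 and the difference between 1.91 and 2.26; 5 of these 11 are TGFb1 arrays, which do not enter the difference and leave it at 2.18. Against wild type the TGFb1 arrays were at a difference of 1.86 (SE 0.45, adjusted p = 0.651), and against beta6 null they were at -0.33 (95% interval -1.34 to 0.69, adjusted p = 0.799). The exact two-sided permutation p of Sftpc by itself was 0.0159 for beta6 null against wild type, the smallest for 4 against 5 arrays, and 0.00794 for TGFb1 against wild type, neither adjusted over genes.

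**Figure D1:**
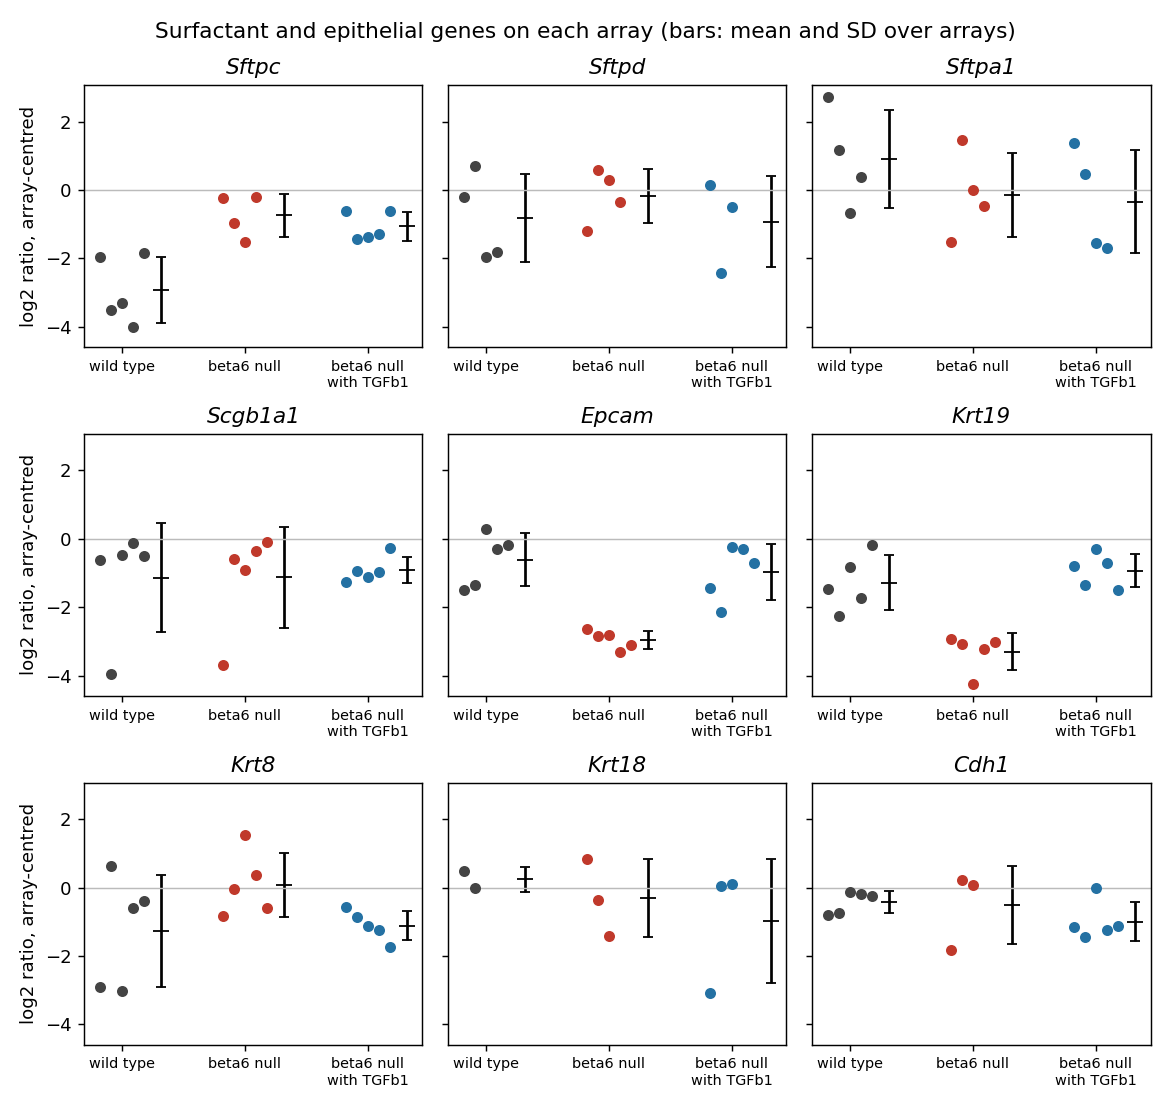
Log2 ratio, centred on each array's median, of the 9 genes with a probe. Each point is 1 array, and the bar beside each group is the mean with the SD over arrays. Epcam and Krt19 are lowest on the 5 beta6 null arrays, Sftpc is lowest on the 5 wild type arrays, and the groups overlap for the other 6 genes.

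Sftpd and Sftpa1 code for surfactant proteins D and A, the collectins of the airspace that bind microbes. Sftpd read -0.20, 0.71, -1.95 and -1.82 on 4 wild type arrays, -1.20, 0.60, 0.29 and -0.35 on 4 beta6 null arrays and 0.14, -2.42 and -0.51 on 3 TGFb1 arrays. For beta6 null its difference was 0.65 (SE 0.73, adjusted p = 0.763), and with TGFb1 against beta6 null -0.76 (SE 0.79, adjusted p = 0.702). Sftpa1 read 2.72, 1.17, -0.66 and 0.37 on wild type arrays, -1.51, 1.45, -0.01 and -0.46 on beta6 null arrays and 1.38, 0.47, -1.53 and -1.69 with TGFb1, 4 arrays each. For both genes every pair of groups overlapped. The difference of Sftpa1 in beta6 null was -1.03, the side opposite to Sftpc, with a 95% interval of -2.97 to 0.90 (adjusted p = 0.684).

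Scgb1a1 codes for the main secretory protein of club cells. It read -0.60, -3.96, -0.46, -0.13 and -0.50 on wild type arrays, -3.70, -0.58, -0.92, -0.35 and -0.08 on beta6 null arrays and -1.27, -0.93, -1.13, -0.98 and -0.27 with TGFb1. The low values are from wild type replicate 2 and from beta6 null replicate 1, whose values were the widest over all probes. The difference in beta6 null was 0.01 (95% interval -1.58 to 1.59, adjusted p = 0.998) and with TGFb1 against beta6 null 0.21 (95% interval -1.38 to 1.80, adjusted p = 0.925). Without these arrays the means were -0.42 ± 0.20 for wild type (SD, n = 4) and -0.48 ± 0.36 for beta6 null (n = 4), against -0.91 ± 0.38 for TGFb1 (n = 5), and no difference passed.

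Krt8 and Krt18 code for keratins that pair with each other in simple epithelium. Krt8 read -2.92, 0.64, -3.02, -0.59 and -0.39 on wild type arrays, -0.83, -0.04, 1.53, 0.37 and -0.60 on beta6 null arrays and -0.58, -0.87, -1.13, -1.23 and -1.73 with TGFb1. The groups overlapped, with 2 wild type arrays far below the other 3. Its difference was 1.34 in beta6 null (SE 0.66, adjusted p = 0.455) and -1.19 with TGFb1 against beta6 null (SE 0.66, adjusted p = 0.418), in each case on the side of 0 opposite to that of Krt19. Krt18 read 0.50 and -0.02 on 2 wild type arrays, 0.85, -0.37 and -1.42 on 3 beta6 null arrays and -3.08, 0.05 and 0.10 on 3 TGFb1 arrays. With no filter on missing values its differences were -0.55 (SE 1.08, adjusted p = 0.890) and -0.67 (SE 0.96, adjusted p = 0.826).

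Cdh1, the gene of E-cadherin, read -0.80, -0.75, -0.11, -0.18 and -0.24 in wild type, -1.82, 0.22 and 0.09 on 3 beta6 null arrays and -1.16, -1.44, -0.01, -1.23 and -1.13 with TGFb1. In beta6 null the difference was -0.09 (95% interval -1.13 to 0.95, adjusted p = 0.960), and with TGFb1 it was -0.49 against beta6 null (SE 0.48, adjusted p = 0.685) and -0.58 against wild type (SE 0.42, adjusted p = 0.833). The interval of Cdh1 in beta6 null does not reach the fall of Epcam.

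**Figure D2:**
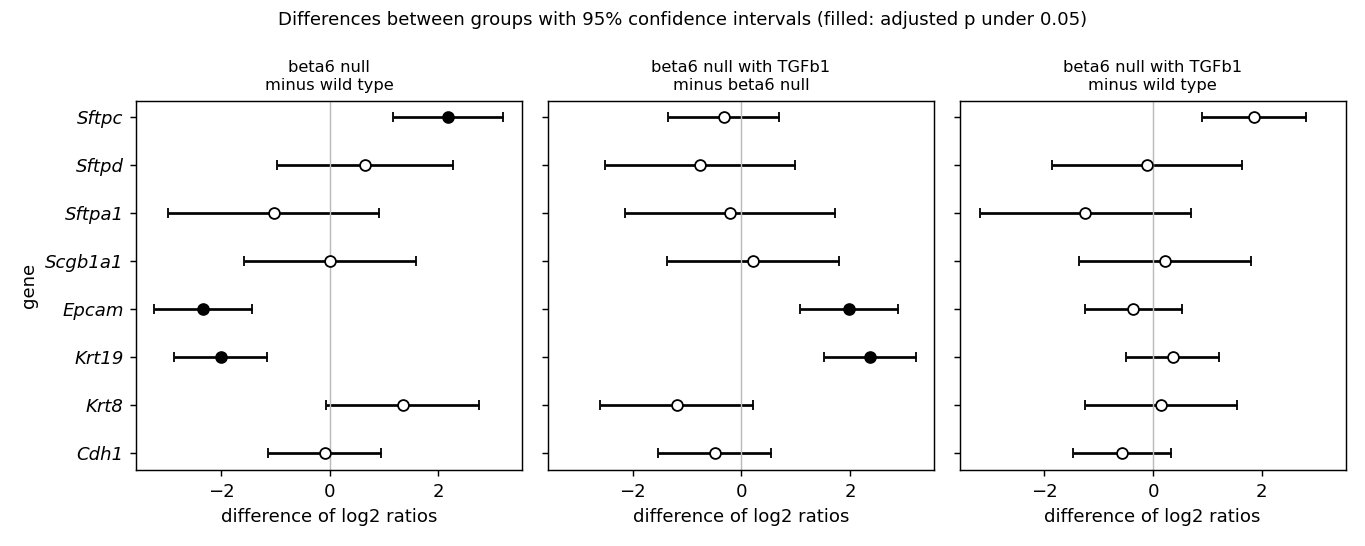
Differences of the mean log2 ratio between groups for the 8 genes tested, 1 panel per comparison. Points are differences of the fit and lines are 95% confidence intervals, with filled points where the adjusted p was under 0.05. Epcam and Krt19 lie below 0 in beta6 null against wild type (-2.34 and -2.01) and above 0 with TGFb1 against beta6 null (1.98 and 2.37), while Sftpc lies above 0 against wild type in both other groups (2.18 and 1.86).

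The 8 genes did not shift to one side. In beta6 null against wild type 4 of 8 lay above 0, with a median of -0.04 beside -0.05 over all features. With TGFb1 against beta6 null 3 lay above 0, with a median of -0.27 beside 0.12, and with TGFb1 against wild type 4 did, with a median of 0.02 beside 0.07. The groups did not overlap for 3 of the 8 in the first comparison (5.12% over all features), for 2 in the second (8.26%) and for 1, Sftpc, with TGFb1 against wild type (2.88%). The first 2 comparisons share the beta6 null arrays and the comparison of TGFb1 with wild type shares arrays with each, so their values are not separate evidence of each other.

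The difference of a pair of genes on the same array is given as a description. The pairs were chosen for genes already seen to change and restate those changes, so a test of them adds no evidence. Of 26 pair changes none passed an exact permutation test after adjustment (lowest adjusted p 0.0590). Sftpc minus Epcam was -2.31 ± 1.36 for wild type (SD, n = 5) and 2.29 ± 0.56 for beta6 null (n = 4). Krt19 minus Krt8 was -3.38 ± 1.45 for beta6 null and 0.18 ± 0.53 for TGFb1 (SD, n = 5 each), with no overlap of arrays. For wild type it was -0.03 ± 2.04 (SD, n = 5), and these arrays overlapped those of beta6 null. Epcam minus Krt19, by contrast, was 0.68 ± 0.66 for wild type, 0.35 ± 0.63 for beta6 null and -0.04 ± 0.68 for TGFb1 (SD, n = 5 each).

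From array to array within the groups, correlations between the genes centred near 0. Deviations from the group means were correlated for the 19 pairs with at least 12 arrays in common. The median Pearson r was -0.05, with 9 of 19 pairs above 0, beside a median of 0.02 over all pairs of the 6592 features measured on every array, whose quartiles were -0.28 and 0.33. Epcam and Krt19 gave r = 0.48 and rho = 0.56 over 15 arrays (permutation p = 0.108 and 0.0613, adjusted 0.682 and 0.388), and r = 0.48 without the 2 arrays farthest from the median of Epcam. Sftpa1 and Epcam gave r = -0.71 and rho = -0.73 over 12 arrays (permutation p = 0.0368 and 0.0300, adjusted 0.682 and 0.360), with r = -0.66 without the 2 farthest arrays. Sftpc and Epcam gave r = -0.08 and rho = -0.08 over 14 arrays (permutation p = 0.792 and 0.806, adjusted 0.888 and 0.901) and r = 0.01 without 2 arrays. Epcam and Cdh1 gave r = 0.34 and rho = 0.54 over 13 arrays (permutation p = 0.148 and 0.0379, adjusted 0.702 and 0.360), with r = 0.19 without 2 arrays, and Krt19 and Cdh1 gave r = 0.34 and rho = 0.40 over 13 arrays (permutation p = 0.0950 and 0.142, adjusted 0.682 and 0.673), with r = 0.33 without 2 arrays. The 3 pairs among Epcam, Krt19 and Cdh1 were thus all above 0, but none passed after adjustment. Without the 2 widest arrays Epcam and Krt19, Epcam and Cdh1, and Krt19 and Cdh1 gave r = 0.36, 0.30 and 0.29. When every array was scaled to the same width, these pairs gave r = 0.65, 0.01 and -0.025, so the shared sign did not hold there. Of the 19 pairs, 0 passed after adjustment, and 1 by Pearson's r and 2 by Spearman's rho had an unadjusted p under 0.05.

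**Figure D3:**
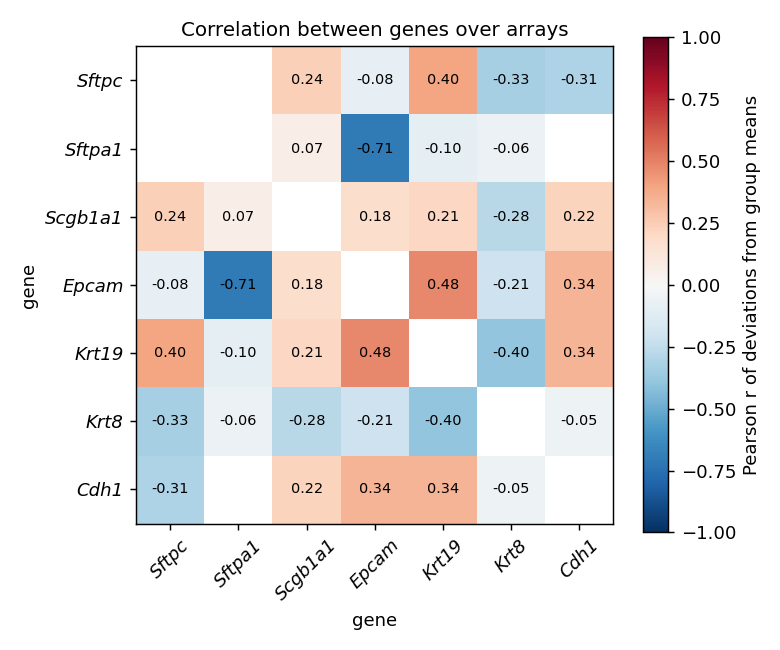
Pearson r between genes over arrays, after the mean of each group was taken out, for the 19 pairs with at least 12 arrays in common. Colour and number give r; empty squares are pairs with fewer arrays and the diagonal. Values run from -0.71 for Sftpa1 and Epcam to 0.48 for Epcam and Krt19, with 9 pairs above 0.

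The wider epithelium was read through lists of markers of alveolar type II, alveolar type I, club and secretory, ciliated and basal cells and of epithelium in general, 65 genes tested in all, of which 8 are the genes above. Beside those 8, 1 of the other 57 genes passed in beta6 null against wild type, or 1.75% beside 0.949% over all features. It was Fabp5, a fatty acid-binding protein of type II cells that macrophages express too (2.10, SE 0.23, adjusted p = 2.6e-04). The genes of these lists that are named without a call were chosen after their values were seen. Scd1, a fatty acid desaturase, was at 2.76 (SE 0.63, adjusted p = 0.0647), and Slc34a2, the phosphate transporter of type II cells, at 1.16 (SE 0.49, adjusted p = 0.377). Of the 57, 36 lay above 0 with a median of 0.25, beside -0.05 over all features; without the 2 widest arrays 28 of 55 did, with a median of 0.02. With TGFb1 against beta6 null Fabp5 fell (-1.17, SE 0.23, adjusted p = 0.0332), again 1.75% beside 0.708%, and 39 of the 57 lay below 0 with a median of -0.34 beside 0.12 over all features. That median was -0.30 without the 2 widest arrays. The list medians of type II, type I and club cell genes were 0.56, 0.51 and 0.25 in beta6 null against wild type. With TGFb1 against beta6 null they were -0.40, -0.65 and -0.50. Ciliated cell genes lay at -0.04 and -0.22 in these comparisons, and the 3 basal cell genes at 0.01 and -0.23. The type II and club cell lists include genes tested above, such as Sftpc and Scgb1a1. All these list medians keep the 2 widest arrays. Without those arrays the pooled lists, members included, had a median of -0.05 in beta6 null, with 31 of 63 genes above 0.

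Among the 20 genes of general epithelium tested, Epcam and Krt19 were those called in either comparison. The list as a whole did not lean their way: 11 of 20 lay above 0 and 9 below in beta6 null, with a median of 0.15, and 10 lay on each side with TGFb1 against it, with a median of -0.11. Perp, a gene of desmosomes, was at -2.44 in beta6 null (SE 0.68, adjusted p = 0.132) and at 2.31 with TGFb1 against it (SE 0.68, adjusted p = 0.121). Krt7, a keratin that pairs with Krt19, was at -0.60 (SE 0.28, adjusted p = 0.424) and 0.72 (SE 0.28, adjusted p = 0.232). Cldn3, a tight junction gene, was at 1.58 in beta6 null (SE 0.58, adjusted p = 0.313). Itgb6, the gene disrupted in these mice, was at 0.39 (SE 0.40, adjusted p = 0.734); where its probes lie relative to the disruption is not given. Of 12 genes of epithelial to mesenchymal transition, none passed in any comparison. In beta6 null 6 lay above 0 and 6 below, with a median of 0.08, from Ctnnb1, which binds E-cadherin inside the cell, at -1.32 (SE 0.38, adjusted p = 0.141) to the matrix gene Fn1 at 0.83 (SE 1.04, adjusted p = 0.790). The repressors of epithelial genes Snai1 (0.22), Snai2 (0.53), Twist1 (0.25) and Twist2 (0.46) lay above 0, and Zeb1 (-0.78) and Zeb2 (-1.27) below.

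Some genes of alveolar macrophages themselves moved in the same comparisons as Epcam and Krt19. Of 22 such genes tested, with Krt19, Epcam and Cdh1 kept off the list, 5 fell and 1 rose in beta6 null and 4 rose with TGFb1 against it, where over all features 0.588% were lower and 0.362% higher in beta6 null and 0.58% higher with TGFb1. The list was drawn up knowing earlier results of these samples, so its direction is no independent evidence. Olr1, a receptor of oxidised lipoprotein, fell (-3.06, SE 0.31, adjusted p = 1.8e-04) and rose (2.84, SE 0.31, adjusted p = 0.00114) in these comparisons, and Fabp1 (-3.27), Il18 (-2.12), Flt1 (-4.16) and Cidec (-1.35) also fell. Ctsk, a cysteine protease, was the gene that rose (2.68), and Fabp1 (2.53), Il18 (2.46) and Pparg (1.84), the regulator of lipid handling in these cells, rose with TGFb1. Other genes of the list did not pass in beta6 null, and those given next were named after their values were seen. Siglecf (-1.98), Pparg (-1.14), Lpl (-1.07), Abcg1 (-0.99), Krt79 (-0.99) and Cd2 (-0.97) lay furthest below 0 among them. Nearer to 0 or above it were the scavenger receptor gene Marco (-0.50), Car4 (-0.21), Adgre1 (-0.15) and the integrin gene Itgax (0.04). So were the fatty acid-binding protein gene Fabp4 (0.30) and the chemokine gene Ccl6 (1.04). Of the 22 genes, 18 lay below 0 in beta6 null and 21 above 0 with TGFb1 against it. The median difference of the list was -0.77 in beta6 null and 0.83 with TGFb1 against it, beside -0.05 and 0.12 over all features. Averaged over the 19 genes measured on every array, the list lay between -1.81 and -1.55 on the beta6 null arrays, between -1.30 and -0.20 in wild type and between -0.93 and -0.29 with TGFb1. The beta6 null arrays were thus below all others. Since the list was chosen with earlier results of these samples known, this adds no evidence about Epcam and Krt19. The 11 general epithelial genes measured on every array, which include Epcam and Krt19, lay between -1.43 and -0.05 in beta6 null. They overlapped wild type at -0.69 to 0.02. The part of the macrophage genes in the changes of Epcam and Krt19 was not tested.

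**Figure D4:**
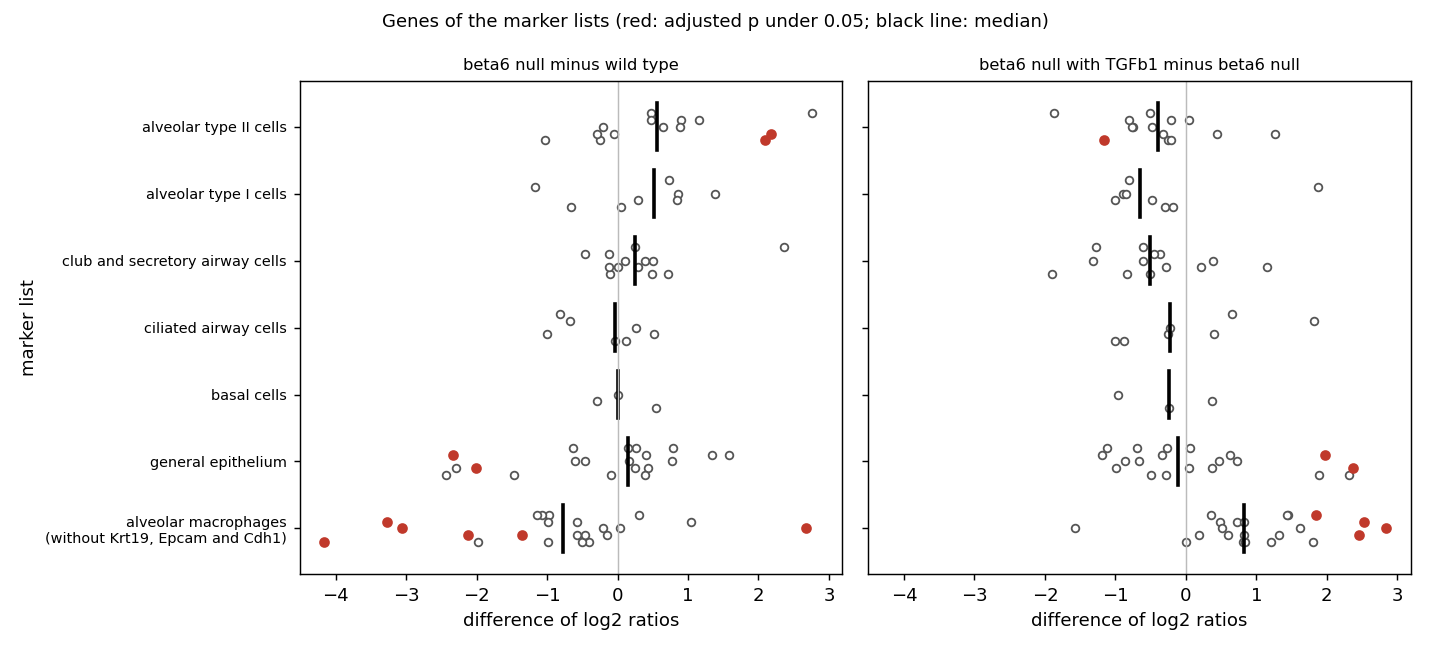
Difference of the mean log2 ratio of each gene of 7 marker lists, for beta6 null minus wild type and for beta6 null with TGFb1 minus beta6 null. Each point is a gene, red where the adjusted p was under 0.05, and the black line is the list's median. Type II and type I cell lists centre above 0 on the left (0.56 and 0.51) and below 0 on the right (-0.40 and -0.65). The macrophage list does the reverse (-0.77 and 0.83), and the calls for general epithelium are Epcam and Krt19. The medians keep the 2 widest arrays, and the type II cell list includes Sftpc.

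Markers of other cells that such a sample could hold were read in the same way. Of 9 neutrophil genes tested S100a8 rose in beta6 null (2.13, SE 0.29, adjusted p = 0.00148), and of 7 genes of fibroblasts and endothelium Eng fell (-1.97, SE 0.43, adjusted p = 0.0409), beside 0.949% of all features called. The neutrophil genes measured on every array averaged -0.89 to -0.11 on wild type arrays, -0.30 to 0.73 on beta6 null arrays and -0.95 to 0.29 with TGFb1. Of 13 general macrophage genes Aif1 fell with TGFb1 against beta6 null (-3.20), beside 0.128% of all features called lower there. In that comparison 10 of the 13 lay above 0. Aif1 was at 2.28 in beta6 null against wild type (SE 0.66, adjusted p = 0.149). None of 10 T and NK cell genes, 5 B cell genes or 2 erythroid genes passed in any comparison. All 5 B cell genes nevertheless lay above 0 in beta6 null, with a median of 1.39, and 4 of 5 below 0 with TGFb1 against it, with a median of -1.61. The B cell receptor genes Cd79b and Ighm were at 1.84 (SE 0.64, adjusted p = 0.272) and 1.47 (SE 0.57, adjusted p = 0.321) in beta6 null. The 2 B cell genes measured on every array averaged -0.87 to 0.62 on wild type arrays, 0.51 to 1.88 on beta6 null arrays and -3.41 to -0.16 on TGFb1 arrays. Slc4a1, the anion exchanger of red cells, was at 2.68 (SE 0.73, adjusted p = 0.151) in beta6 null. The part of these cells in the rise of Sftpc was not tested. Xist, which silences one X chromosome in female cells, averaged -3.10 ± 0.71 for wild type, -0.40 ± 1.48 for beta6 null and -3.07 ± 0.49 for TGFb1 (SD, n = 5 each). Its level thus went largely with the beta6 null group, but beta6 null replicate 4 (-2.46) lay within the wild type range of -4.14 to -2.37. On that array Epcam read -3.31, Krt19 -3.22 and Sftpc -1.53. The other beta6 null arrays lay above that range, so the fit could not tell the part of Xist from that of the group. With the Xist level as a covariate no feature and none of the 8 genes passed by limma. In the first 2 comparisons 922 and 1103 features had an unadjusted p under 0.05. The SE of Epcam in beta6 null rose from 0.42 to 0.69 with this covariate. Epcam was then at -2.65, Krt19 at -1.52 and Sftpc at 1.82 in beta6 null (adjusted p = 0.330, 0.677 and 0.713).

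The genes whose values over the arrays were most like those of each member were looked up among 5503 to 6584 genes, as a description. For Epcam they were Cdc42se1 (r = 0.91 over 15 arrays), Snrk (0.90) and Olr1 (0.90). For Krt19 they were Pnpla8, a phospholipase (0.96), Nrsn1 (0.96) and the G protein subunit Gna11 (0.95). For Sftpc, over 14 arrays, they were the leukocyte tetraspanin Cd53 (0.83), Myo5a (0.82) and H2-Aa, a chain of MHC class II (0.82). For Scgb1a1 they were 8430432A02Rik, Dld and Igf1r (0.97, 0.97 and 0.95), values that fell to 0.68, 0.62 and 0.61 without the 2 widest arrays. Krt8 was most like Gbp4 (0.77), Cdh1 most like Hhex (0.79, 13 arrays) and Sftpa1 most like Lztfl1 (0.83, 12 arrays). No other member stood among the 3 genes nearest to any member. These r were taken with the group means left in, unlike the correlations between members above. On the same values Epcam and Krt19 gave r = 0.85 over 15 arrays.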

How the data were processed

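The deposited table gave 1 log ratio per probe and array, taken as log2 because the authors' scale is not stated; scanner, background correction, normalization and genome build are not given in the sources used here. Of 17225 probes, 30 control spots were left out. The platform annotation gave 13972 probes 1 symbol, 13 several and 3210 none listed, and 13869 symbols were looked up by Entrez identifier in a RefSeq table. Medians of arrays were set to 0 and probes of a gene were averaged. All 15 arrays entered 1 limma fit of 3 group means (limma 3.58.1, R 4.3.3), over the 13273 features measured 3 times or more per group, with Benjamini-Hochberg adjustment over all of them and a threshold of 0.05. The fit was tested on simulated data. Exact permutation tests over arrays used scipy 1.17.1, and correlations used 100000 permutations within groups. Replicates were numbered in accession order and pair nothing. The precision is limited by the number of arrays.

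The members, marker lists and tests were chosen with earlier results of these data known. Named are all members, up to 4 called genes per marker list and comparison, and Xist. Up to 3 features most like each member measured on at least 12 arrays are named too. Cidec and Ctsk, called in beta6 null, were named beyond the 4 of the alveolar macrophage list. Others are named as chosen after their values were seen. Alternatives were quantile normalization, equal spread of the arrays, array weights, a title suffix of unstated meaning as a block, Xist as a covariate, other filters on missing values, single probes, 2 groups alone, and arrays left out. Differences between pairs of genes were added after seeing the data. No 2 arrays correlated above r = 0.576.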

Additional observations from a re-analysis of the deposited data

Results flagged for a closer look

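In 22 groups of 4 or 5 arrays the highest or lowest array was compared with its nearest neighbour, and 4 stood apart by Dixon's criterion at its 95% level, where chance gives about 1 group in 20. Scgb1a1 was lowest on wild type replicate 2 (-3.96) and on beta6 null replicate 1 (-3.70), whose SD over all probes were the largest. Krt19 was lowest on beta6 null replicate 3 (-4.25), where the other beta6 null arrays lay between -3.22 and -2.94. Cdh1 was highest on TGFb1 replicate 3 (-0.009), where the other arrays of that group lay between -1.44 and -1.13. The part of the width of an array in the Scgb1a1 values was not tested.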

How the results depend on the processing

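The calls of Epcam, Krt19 and Sftpc kept their direction in all 26 alternatives, while the number that kept the call was 22 for the fall of Epcam, 15 for the fall of Krt19, 7 for the rise of Sftpc in beta6 null, and 8 for Epcam and 21 for Krt19 with TGFb1. In beta6 null against wild type, features called numbered 126, against 76 with quantile normalization, 61 with equal spread, 422 with array weights, 66 with the suffix of the titles as a block, 190 without the 2 widest arrays, 78 without the 2 arrays numbered apart, 0 with Xist as a covariate, 83 with no filter, 41 with the 2 groups alone and 64 to 154 with 1 array left out. Members called fell from 3 to 0 with quantile normalization, equal spread, Xist or without the arrays numbered apart, to 1 with the suffix block or the 2 groups alone, and ran from 1 to 3 with 1 array left out. With TGFb1 against beta6 null, features called numbered 94, against 15, 11, 621, 43, 321, 30 and 0 in the first 7 of these settings, 142 with values on 4 arrays of every group and 23 to 318 with 1 array left out. Members called fell from 2 to 0 with quantile normalization, equal spread or Xist, to 1 with the suffix block, without the arrays numbered apart, with no filter or with 2 groups alone, and ran from 0 to 2 with 1 array left out. With TGFb1 against wild type 1 feature was called with array weights or the 2 groups alone, and 0 to 1 with 1 array left out. The cause of these moves was not tested.

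Signs that turned belong to differences that did not pass. In beta6 null against wild type, Scgb1a1 turned to -0.0586 without the widest arrays, -0.19 without the arrays numbered apart, -0.52 with Xist and as far as -0.70 with 1 array left out (range -0.70 to 0.65), and Cdh1 to 0.0465 (quantile), 0.0335 (equal spread), 0.20 (weights) and 0.24 (Xist). With TGFb1 against beta6 null, Sftpc turned to 0.0325 (Xist), Sftpa1 to 0.28 without the arrays numbered apart (range -0.79 to 0.32 with 1 array left out), and Scgb1a1 to -0.35 (quantile), -0.39 (equal spread), -0.45 (weights), -0.015 (suffix block) and -0.43 without the widest arrays (range -0.43 to 0.47). With TGFb1 against wild type, Sftpd turned to 0.0148 (quantile), 0.0896 (equal spread) and 0.20 (weights, range -0.49 to 0.39), Scgb1a1 to -0.26, -0.23, -0.38 and, without the widest arrays, -0.49 (range -0.49 to 0.47), Krt19 to -0.0442 (quantile) and Krt8 to -0.0303 (quantile, range -0.29 to 0.62). The median correlation between members was -0.09 with equal spread, -0.11 without the widest arrays and -0.01 for values as they are. No paired analysis was possible because the labels give no replicate numbers that pair arrays.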
